A study of Mus musculus with 8 samples.

Results

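The cadherins and epithelial junction genes described here are 9 genes: Cdh1, Cdh2, Cdh3, Ctnnd1, Tjp1, Ocln, Cldn1, Cldn19 and Epcam. They were picked by symbol, by a rule that sets no threshold on a measured value, and all 9 had a row among the 31053 genes counted in each library. The libraries came from eyecup preparations of the retinal pigment epithelium (RPE), the pigmented cell sheet behind the photoreceptors, of mice at postnatal day 11 (P11). There were 4 libraries from wild-type littermates (Bbs8+/+) and 4 from animals lacking Bbs8 in the whole body (Bbs8-/-). Bbs8, listed as Ttc8, encodes a subunit of the BBSome, a complex that moves cargo to and from the primary cilium. Every tissue of a Bbs8-/- animal carries the deletion, the retina included, and no further allele or treatment was named for either genotype. The comparison asks which junction genes differ between Bbs8-/- and Bbs8+/+ eyecups before the photoreceptor outer segments are mature. Gene expression was read by QuantSeq 3′ mRNA sequencing, which counts reads from the 3′ ends of polyadenylated transcripts.

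Epithelial cells such as those of the RPE hold to their neighbours through adherens junctions and seal the space between them through tight junctions. In an adherens junction, the outer parts of cadherins on facing cells bind each other, and their inner parts bind the catenins p120 and beta-catenin, the latter linked to actin by alpha-catenin. In a tight junction, claudins and occludin form the strands and the ZO proteins anchor them inside the cell. In the RPE these contacts form part of the outer blood-retina barrier, and a loss of E-cadherin with a gain of N-cadherin is the textbook mark of an epithelial cell turning mesenchymal.

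Library depth ranged from 1636725 to 2884983 gene counts. Levels are library-scaled counts in CPM, with edgeR's trimmed mean of M values (TMM) as the scaling, and 3 counts, taken as the smallest level the depth could show, stood for 1.05 to 1.82 CPM. Ttc8, the targeted gene, read 14.6, 19.7, 18.2 and 21.6 CPM in Bbs8+/+ replicates 1 to 4 and 9.70, 3.65, 2.29 and 4.20 CPM in Bbs8-/- replicates 1 to 4, so that the genotypes did not overlap. Of 13813 genes tested across the whole table, 309 passed a false discovery rate (FDR) of 0.05 in edgeR's quasi-likelihood test (2.24%), and 157 of these were lower in Bbs8-/- (1.14%). Among the 9 junction genes, 8 had enough counts to be tested, and Cdh1 alone passed, with a lower level in Bbs8-/-. Levels did not overlap between the genotypes in 7.38% of all tested genes, and of the 8 tested junction genes this held for Cdh1 alone.

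**Figure D1:**
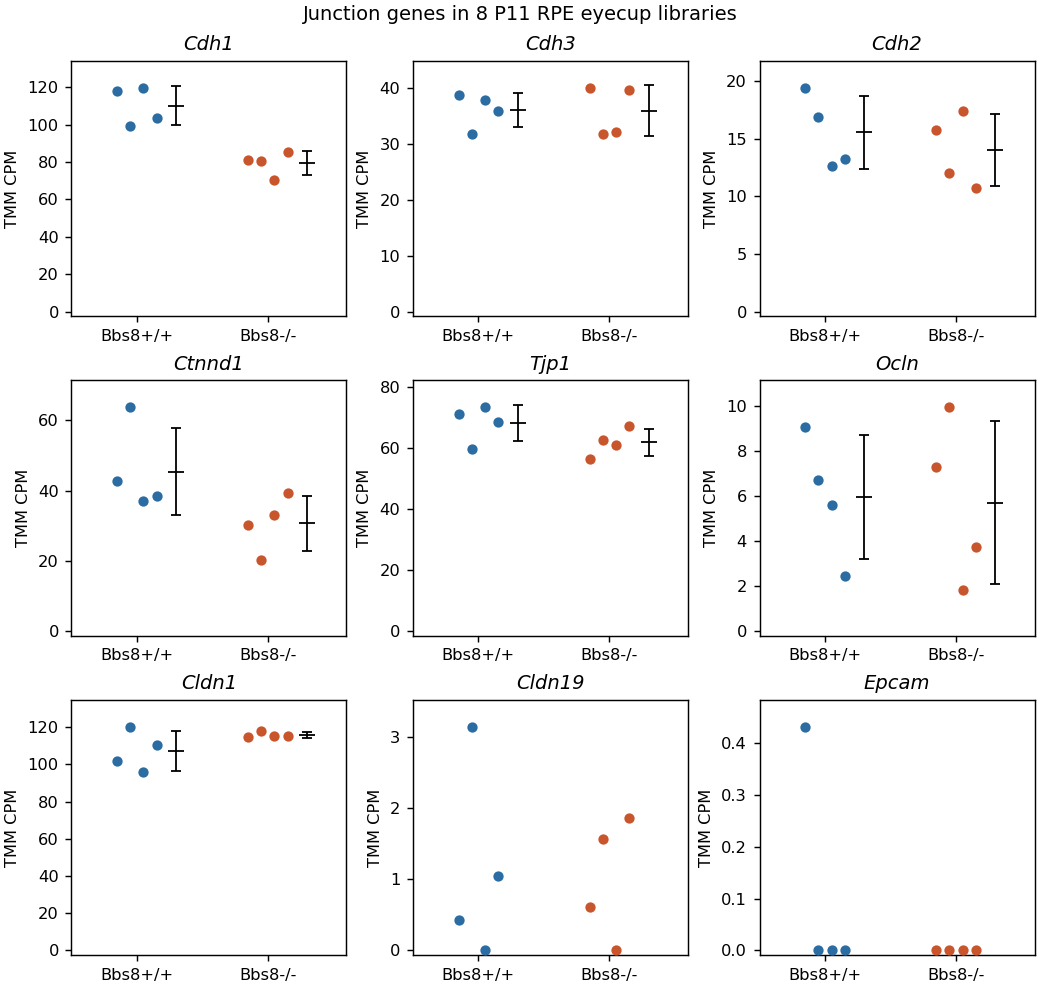
TMM CPM (vertical axes, each from 0 and with its own range) of the 9 junction genes in the 4 Bbs8+/+ libraries (blue) and the 4 Bbs8-/- libraries (orange), replicates 1 to 4 from left to right. Bars give the mean ± SD except for Cldn19 and Epcam, whose counts were too few. The Cdh1 panel is the only panel of a tested gene in which the blue and the orange points do not overlap.

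Cdh1 encodes E-cadherin, the founding cadherin of epithelial adherens junctions (ENSMUSG00000000303, mm10 chr8:106603351-106670246, plus strand). It was counted 274, 252, 256 and 296 times in Bbs8+/+ replicates 1 to 4 and 134, 154, 153 and 183 times in Bbs8-/- replicates 1 to 4. On the CPM scale these were 118, 99.1, 120 and 103 in Bbs8+/+ against 81.3, 80.4, 70.2 and 85.4 in Bbs8-/-. Every Bbs8-/- library lay below every Bbs8+/+ library, and the gap between the nearest libraries, at 85.4 and 99.1 CPM, was wider than the SD within either genotype. Cdh1 thus fell to 0.722-fold of the Bbs8+/+ level (95% interval 0.623 to 0.837), from 110 ± 10.3 to 79.3 ± 6.49 CPM (SD, n = 4). On the log2 scale the change was -0.47 ± 0.11 (SE), at an edgeR quasi-likelihood FDR of 0.0027. The study's own quantitative PCR reported the opposite direction at P11, a significant rise of Cdh1 in Bbs8-/- eyecups. The reason for this difference was not tested. The preparations hold more than 1 cell type, and in such libraries fewer cells of a type and less RNA per cell cannot be told apart.

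Cdh3 encodes P-cadherin, a second classical cadherin of the RPE (ENSMUSG00000061048, chr8:106510891-106557297). Its gene ends 46053 bases before the start of Cdh1, on the same strand. Its level was 38.8, 31.8, 37.8 and 36.0 CPM in Bbs8+/+ and 40.0, 31.8, 32.1 and 39.7 CPM in Bbs8-/-. The ranges of the genotypes lay over each other, and the log2 fold change was -0.01 ± 0.17 (SE, 95% interval -0.34 to 0.32, edgeR FDR 0.992). A change of Cdh3 as large as the fitted change of Cdh1 therefore lay outside the interval of Cdh3.

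Cdh2 encodes N-cadherin, the cadherin of neural and mesenchymal cells, which the RPE also uses (ENSMUSG00000024304, chromosome 18, minus strand). It was counted 45, 43, 27 and 38 times in Bbs8+/+ and 26, 23, 38 and 23 times in Bbs8-/-, which gave 19.4, 16.9, 12.6 and 13.3 CPM against 15.8, 12.01, 17.4 and 10.7 CPM. The genotypes overlapped over most of their range. The log2 fold change was -0.15 ± 0.26 (SE, edgeR FDR 0.873), and its 95% interval from -0.66 to 0.35 covered both a fall as large as that of Cdh1 and a modest rise. A rise of N-cadherin mRNA beside the lower E-cadherin mRNA was therefore not detected at this depth. Cdh2 overlaps Gm15485 on the opposite strand, and whether the counting used strand is not given in the sources used here, so a share of its counts is uncertain.

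The difference between Cdh1 and the other cadherins was tested within libraries, where the scaling between libraries drops out. Of the counts of the 3 cadherins together, Cdh1 took 67.0%, 67.0%, 70.3% and 67.7% in Bbs8+/+ and 59.3%, 64.7%, 58.6% and 62.9% in Bbs8-/-. All 4 Bbs8-/- libraries had a smaller share, and the mean fell from 68.0% ± 1.58 to 61.4% ± 2.904 (SD, n = 4), a difference of -6.64 percentage points. A two-sided exact permutation test over libraries gave p = 0.0286, and no smaller p can come from 4 against 4 libraries. Without any 1 of the Bbs8+/+ libraries the exact p was 0.0571, with differences from -6.99 to -5.87 points and still no overlap. So few libraries give an exact p only in coarse steps, so this loss of the call does not single out any library. These shares compare the same 3 genes between libraries and are not a measure of which cadherin was the most abundant.

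Further ratios separated the genotypes in the same direction. The log2 ratio of Cdh1 to Cdh3 counts was 1.61, 1.64, 1.66 and 1.52 in Bbs8+/+ and 1.02, 1.34, 1.13 and 1.11 in Bbs8-/-, a mean difference of -0.46 with no overlap. The log2 ratio of Cdh1 to Cldn1 counts was 0.22, -0.28, 0.32 and -0.10 in Bbs8+/+ and -0.50, -0.55, -0.71 and -0.43 in Bbs8-/-, a mean difference of -0.59 with no overlap. The log2 ratio of Cdh1 to the summed counts of 10 RPE markers was -7.24, -7.53, -7.27 and -7.39 in Bbs8+/+ and -7.85, -7.88, -8.07 and -7.77 in Bbs8-/-, a mean difference of -0.53 with no overlap. The two-sided exact permutation p was 0.0286 for each of the 4 ratios, and 0.0286 after Benjamini-Hochberg adjustment over the 4. Each p stood at the smallest that 4 against 4 libraries allow, so the adjustment could not change it and adds nothing. Cdh1 on its own already separated the genotypes. All 4 ratios have Cdh1 as the numerator and are not independent of each other, and those to Cdh3 and Cldn1 were chosen after seeing the data. The call on the ratio to Cldn1 was lost without any 1 of the Bbs8-/- libraries (exact p = 0.0571, differences from -0.63 to -0.53). The genotypes still did not overlap there, and the same coarse steps of the exact p apply.

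**Figure D2:**
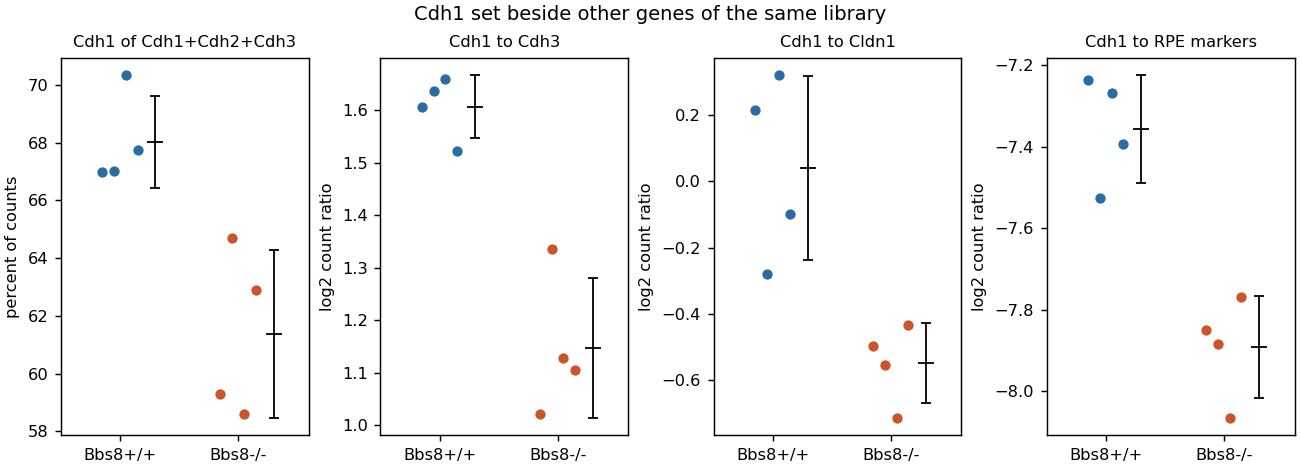
Share of Cdh1 in the counts of the 3 cadherins (percent) and log2 count ratios of Cdh1 to Cdh3, to Cldn1 and to the summed RPE markers, for the 4 Bbs8+/+ (blue) and 4 Bbs8-/- (orange) libraries, with mean ± SD. In every panel all Bbs8-/- points lie below all Bbs8+/+ points; the vertical axes do not start at 0.

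On the inner side of the adherens junction, Ctnnd1 encodes p120-catenin, which binds the cadherin tail near the membrane and keeps the cadherin at the cell surface (ENSMUSG00000034101, chr2:84600071-84650765, minus strand). It read 42.7, 63.7, 36.9 and 38.4 CPM in Bbs8+/+ and 30.3, 20.4, 33.0 and 39.2 CPM in Bbs8-/-. Bbs8-/- replicate 4 lay above Bbs8+/+ replicates 3 and 4, so the genotypes overlapped, and the highest and lowest libraries, Bbs8+/+ replicate 2 and Bbs8-/- replicate 2, set much of the difference. The log2 fold change was -0.56 ± 0.17 (SE, 95% interval -0.89 to -0.22), with an edgeR quasi-likelihood FDR of 0.0565, just short of the threshold. Without Bbs8+/+ replicate 2 it was -0.34 (edgeR FDR 0.474), and without Bbs8-/- replicate 2 it was -0.40 (edgeR FDR 0.326). Without Bbs8-/- replicate 4 it was -0.70 (edgeR FDR 0.0255), so that the call on Ctnnd1 turned on single libraries. Ctnnd1 also overlaps Gm28635 on the same strand, and how reads were divided between them is uncertain.

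Ctnnb1, which encodes beta-catenin, the cadherin partner that also carries canonical Wnt signals, belongs to the same complex and was read from a wider list of adherens junction genes. It read 707, 708, 660 and 708 CPM in Bbs8+/+ and 582, 582, 602 and 585 CPM in Bbs8-/-. Every Bbs8-/- library was below every Bbs8+/+ library, at a log2 fold change of -0.24 ± 0.05 (SE, edgeR FDR 0.00207), a smaller fall than that fitted for Cdh1. The difference between the changes of Cdh1 and Ctnnb1 was not tested. Ctnna1, which encodes alpha-catenin, read 281, 317, 291 and 294 CPM in Bbs8+/+ and 266, 268, 248 and 257 CPM in Bbs8-/-; it did not pass (log2 fold change -0.19, edgeR FDR 0.173), although the genotypes did not overlap, and it was named after its values were seen.

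**Figure D3:**
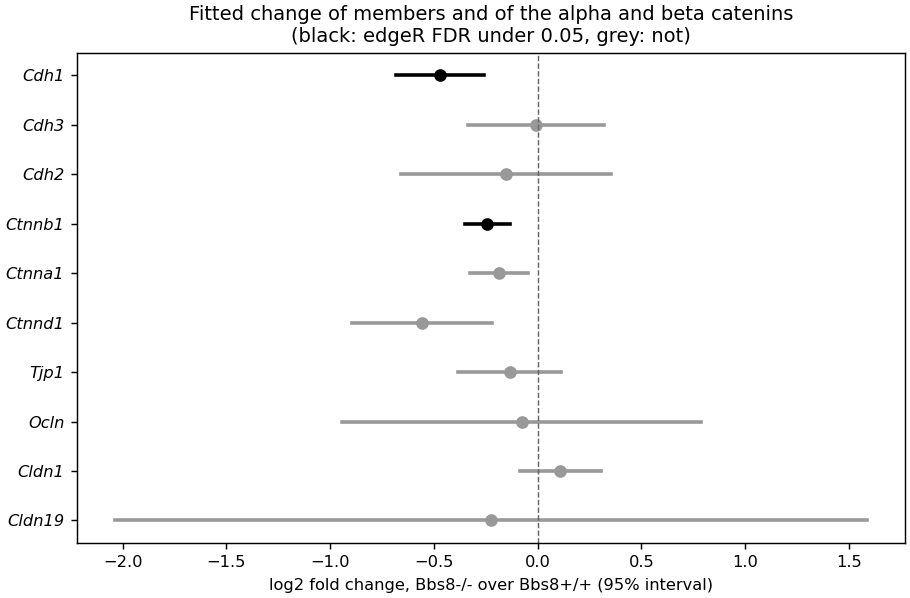
Log2 fold change of Bbs8-/- over Bbs8+/+ (horizontal axis, points) with its 95% interval (lines) for the 8 tested junction genes and the alpha and beta catenins Ctnna1 and Ctnnb1. Black marks an edgeR FDR under 0.05, which Cdh1 (-0.47) and Ctnnb1 (-0.24) reached, and the interval of Cldn19, the tested gene with the fewest counts, is the widest.

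Among the tight junction genes, none of the 4 that could be tested passed. Tjp1 encodes ZO-1, the scaffold that ties strand proteins to actin (ENSMUSG00000030516, chr7:65296165-65527781, minus strand). It read 71.1, 59.8, 73.3 and 68.4 CPM in Bbs8+/+ and 56.4, 62.7, 61.0 and 67.2 CPM in Bbs8-/-. Bbs8+/+ replicate 2 lay within the Bbs8-/- range, and the log2 fold change was -0.13 ± 0.13 (SE, 95% interval -0.38 to 0.11, edgeR FDR 0.731).

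Cldn1 encodes claudin-1, a sealing claudin (ENSMUSG00000022512, chr16:26356642-26371841, minus strand). It read 102, 120, 95.7 and 111 CPM in Bbs8+/+ and 115, 118, 115 and 115 CPM in Bbs8-/-. The Bbs8-/- libraries lay close together, inside the Bbs8+/+ range. The log2 fold change was 0.11 ± 0.10 (SE, edgeR FDR 0.719). Its 95% interval, -0.09 to 0.30, did not reach the fall seen for Cdh1. Cldn1 had 189 to 317 counts per library, and Cdh1 had 134 to 296.

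Ocln encodes occludin, the four-pass membrane protein of tight junction strands (ENSMUSG00000021638, chr13:100496507-100552718, minus strand). It was counted 21, 17, 12 and 7 times in Bbs8+/+ and 12, 19, 4 and 8 times in Bbs8-/-. The highest and the lowest of its 8 levels, 9.92 and 1.83 CPM, were both in the Bbs8-/- group. The fitted log2 fold change, -0.08, had a 95% interval from -0.94 to 0.79 (edgeR FDR 0.971), and a change smaller than those bounds was not detectable at this depth.

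The remaining genes had few counts. Cldn19 encodes claudin-19, a claudin of the RPE and the kidney (ENSMUSG00000066058, chr4:119255414-119262438, plus strand). It was counted 1, 8, 0 and 3 times in Bbs8+/+ and 1, 3, 0 and 4 times in Bbs8-/-, which is at or under the floor of 3 counts in 6 of the 8 libraries. Although it passed the filter, its 95% interval ran from -2.04 to 1.59 (edgeR FDR 0.955), so that a change anywhere from 0.243-fold to 3.00-fold was compatible with its counts. Cldn19 also overlaps Gm12927 on the opposite strand. Epcam encodes an adhesion molecule of simple and surface epithelia (ENSMUSG00000045394, chr17:87635979-87651129, plus strand). It had 1 count in Bbs8+/+ replicate 1 and 0 in the other 7 libraries, was not tested, and has no fold change, since every library was under the floor.

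The promoters of Epcam and Cldn1 are shown because these members stood at opposite ends of detection, at 1 count in all against 1977. Promoter windows from RefSeq (GRCm38.p6, the same assembly as mm10) were matched for 6 of the 9 members, and Cdh1, Cdh2 and Cdh3 had no entry. In the 250 bases before the transcript start, capitals mark CAGGTG or its reverse complement CACCTG, the E-box letters that Snail and Zeb repressors can bind. The Epcam window is chr17:87635729-87635978 on the plus strand and the Cldn1 window chr16:26371840-26372089 on the minus strand.
Epcam: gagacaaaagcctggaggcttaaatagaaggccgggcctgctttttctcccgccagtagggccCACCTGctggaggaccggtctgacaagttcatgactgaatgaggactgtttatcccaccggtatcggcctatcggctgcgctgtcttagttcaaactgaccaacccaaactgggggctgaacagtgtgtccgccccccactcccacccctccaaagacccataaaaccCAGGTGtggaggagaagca
Cldn1: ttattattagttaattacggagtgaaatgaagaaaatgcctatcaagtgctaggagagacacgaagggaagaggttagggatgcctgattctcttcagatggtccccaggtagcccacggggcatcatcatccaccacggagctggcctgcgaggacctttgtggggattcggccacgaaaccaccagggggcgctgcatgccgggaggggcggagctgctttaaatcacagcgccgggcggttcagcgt
The Epcam window held 2 such matches, which began 187 and 19 bases before the start, and the Cldn1 window held none. Of all 32851 windows in the table, 17.2% held at least 1 match, and of the 9 windows of the 6 members 2 did, 1 of Epcam and 1 of Ocln. A match is a string of letters and not a measured binding site.

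Across 6 wider lists of junction genes, 69 of 98 genes could be tested. Of these, 2 passed and both were lower in Bbs8-/-, namely Ctnnb1 and Zeb2, while 2.24% of all tested genes passed and 1.14% passed as lower. A count of 2 is too small to set the lists apart from that share. By list, 1 of 12 tested other adherens junction genes passed, 0 of 9 other cadherins, 0 of 6 other claudins, 0 of 27 tight junction and polarity genes, 0 of 7 desmosome genes and 1 of 8 regulators of Cdh1. At an unadjusted edgeR p under 0.05 there were 7 of the 69, against 1792 of all 13813 tested genes (13%), and the genotypes did not overlap in 4 of the 69, against the 7.38% of all tested genes given above. Neither the count at an unadjusted p under 0.05 nor that without overlap was thus above the share over all genes. The median log2 fold change was -0.12 over the other adherens junction genes, -0.09 over the other cadherins, 0.12 over the other claudins, -0.06 over the tight junction and polarity genes, 0.07 over the desmosome genes and -0.15 over the regulators. Over all tested genes it was -0.0041. Of the 21 other claudins, 20 had a row, and 8 of those had no count in any library.

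Zeb2 encodes a zinc-finger repressor that binds E-box sites of the Cdh1 promoter. It read 275, 230, 242 and 270 CPM in Bbs8+/+ and 203, 184, 220 and 219 CPM in Bbs8-/-. The genotypes did not overlap, and the log2 fold change was -0.30 ± 0.08 (SE, edgeR FDR 0.00996), so this repressor was lower in the same libraries as Cdh1. The call was lost (edgeR FDR 0.0502 to 0.102) when Bbs8+/+ replicate 1 or 4 or Bbs8-/- replicate 1 or 2 was left out. The other repressors on the list did not pass: Snai1 had a log2 fold change of -0.24 (edgeR FDR 0.866), Snai2 of -0.59 (edgeR FDR 0.268), Zeb1 of -0.06 (edgeR FDR 0.849), Twist1 of -0.03 (edgeR FDR 0.976) and Tcf3 of 0.05 (edgeR FDR 0.953), and these 5 were named after their values were seen. Grhl2, an epithelial activator of Cdh1, had 2 counts in all, both in Bbs8+/+ replicate 1.

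**Figure D4:**
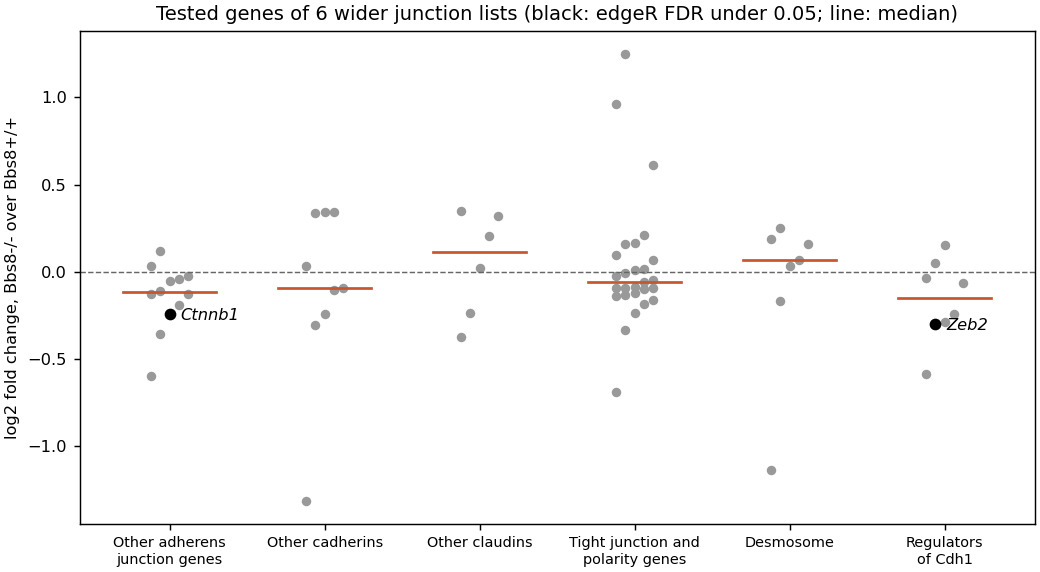
Log2 fold change of Bbs8-/- over Bbs8+/+ (vertical axis) for the tested genes of 6 wider junction lists, 1 point per gene, with the list median as a line. Ctnnb1 and Zeb2 (black) are the only genes with an edgeR FDR under 0.05, and the list medians lie between -0.15 and 0.12.

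Cdh1 and the catenins are expressed by many cell types of the eye, and marker genes of several of them differed between the genotypes beside Cdh1. Of all tested genes 2.24% passed edgeR's test and 1.14% passed as lower, the shares to set beside the list counts below. RPE markers summed to 17381 to 18437 CPM in Bbs8+/+ and 18628 to 18999 CPM in Bbs8-/-, and 0 of 10 passed edgeR's test (5 of 10 at an unadjusted p under 0.05, against 13% of all tested genes). Ttr alone made up most of that sum, its mean being 10937 CPM for Bbs8+/+ against 11657 CPM for Bbs8-/-. The RPE markers had values of both signs, from a log2 fold change of -0.13 for Rpe65 to 0.23 for Stra6 among those of at least 20 CPM. The RPE-defining genes Rpe65 and Rlbp1 had at least 2935 and 1394 counts in every library, whereas Best1 had 25 counts in all. Pigment and melanocyte markers summed to 14599 to 15352 CPM in Bbs8+/+ and 12128 to 12726 CPM in Bbs8-/-, and 6 of 11 were lower, Tyrp1 and Dct first. Dct made up most of that sum, with a mean of 10361 CPM for Bbs8+/+ against 8721 CPM for Bbs8-/-. Sox10, Kit, Tyr and Mc1r overlapped between the genotypes, with log2 fold changes of -0.05, -0.03, 0.02 and 0.21, and none of these 4 passed edgeR's test (FDR 0.871 to 0.974). Pigment genes such as Tyrp1, Dct and Tyr are also expressed by the RPE itself.

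Surface epithelium markers summed to 56.9 to 70.04 CPM in Bbs8+/+ and 29.3 to 39.4 CPM in Bbs8-/-, and the tested keratins, Krt15 and Krt6a first, reached the filter through the Bbs8+/+ libraries alone, so that their calls could only be lower and are not counted here. Most of that sum was Aldh3a1, at a mean of 43.0 CPM for Bbs8+/+ against 30.4 CPM for Bbs8-/- (edgeR FDR 0.0805), while Sfn had a log2 fold change of 0.48 (edgeR FDR 0.862). The 8 keratins of that list together had 36 to 47 counts in each Bbs8+/+ library and 0 or 1 in each Bbs8-/- library, and Krt14 had none in any. Surface epithelia are known to make E-cadherin. The part of these cells in the lower Cdh1 level was not tested.

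Among the other lists, fibroblast markers summed to 34213 to 35944 CPM against 26850 to 28019 CPM in Bbs8-/- (3 of 8 lower, Col1a2 and Col1a1 first). Both collagens carried that sum, whereas Dcn had means of 5884 CPM in Bbs8+/+ and 6250 CPM in Bbs8-/- with no overlap (log2 fold change 0.09, edgeR FDR 0.174), and Lum and Dpt had log2 fold changes of 0.12 and 0.01 (edgeR FDR 0.631 and 0.992). Col3a1 was the remaining gene that passed as lower, at a log2 fold change of -0.21 (edgeR FDR 0.00017). Pdgfra and Fbln1 also had lower values, at -0.25 and -0.11 (edgeR FDR 0.384 and 0.819). Lens markers summed to 42.9 to 55.6 CPM against 158 to 187 CPM (3 of 7 tested higher, Cryaa and Cryba1 first). Those crystallins carried the sum, and Bfsp1, Mip, Lim2 and Bfsp2 did not pass. Their log2 fold changes were 0.93, 0.30, 0.40 and 0.30 (edgeR FDR 0.101 to 0.782). Muscle markers summed to 2509 to 2670 CPM against 2771 to 2930 CPM (0 of 7 passed edgeR's test, 1 of 7 at an unadjusted p under 0.05). Endothelial markers overlapped, at 974 to 1052 CPM against 983 to 1064 CPM (1 of 9, Egfl7, higher). Flt1 and Tie1 went the other way without overlap, at log2 fold changes of -0.25 and -0.32, but did not pass (edgeR FDR 0.133 and 0.255). The genotypes also differed in Y-linked transcripts, at 59.0 to 64.9 CPM in Bbs8+/+ and 108 to 120 CPM in Bbs8-/-. Xist, which is transcribed from the inactive X of females, was at 640 to 746 CPM in Bbs8+/+ and 570 to 625 CPM in Bbs8-/-, so that transcripts of both sexes were counted in every library. The study's methods count each animal as a replicate. Of Y-linked and Xist counts together, the Y-linked part was 7.68% to 8.78% in Bbs8+/+ and 14.9% to 17.3% in Bbs8-/-. How transcripts of both sexes in every library go with a single animal per library was not tested. The labels do not say whether a library held several animals. The n here counts libraries, so the SDs and p-values may not measure the spread between animals. The part of cell make-up and of sex in the Cdh1 and catenin results was not tested, and with all 4 libraries of a genotype on the same side they cannot be told apart from genotype here.

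**Figure D5:**
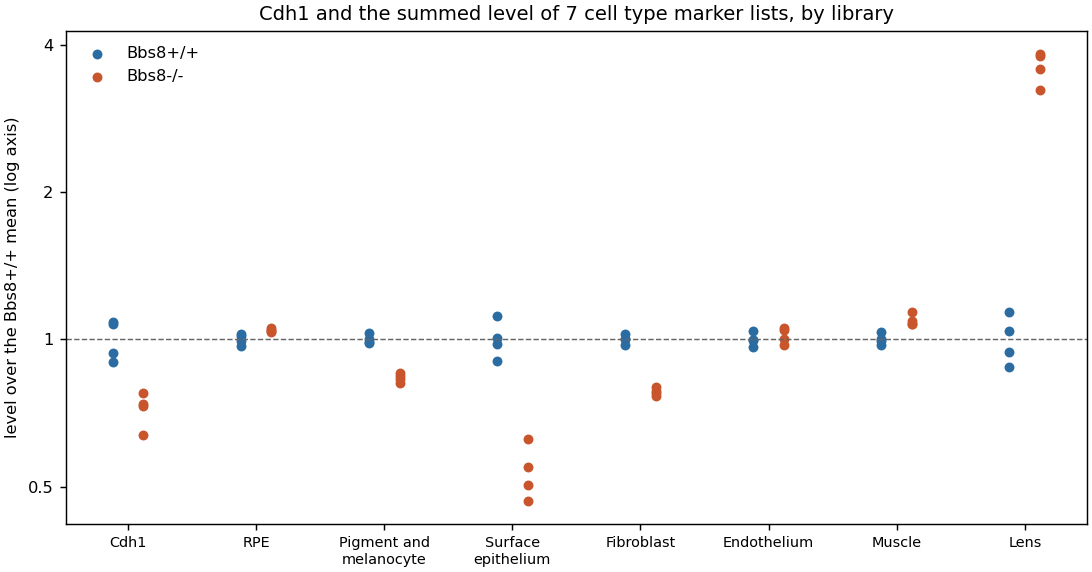
Level of Cdh1 and summed level of 7 cell type marker lists in each library, divided by the Bbs8+/+ mean (vertical log axis), for Bbs8+/+ (blue) and Bbs8-/- (orange) libraries. Cdh1 lies lower in Bbs8-/-, as do, among the lists shown, the surface epithelium, pigment and fibroblast lists (the last carried by Col1a1 and Col1a2), whereas the endothelium list overlaps and the RPE, muscle and lens lists lie higher.

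The genes whose pattern over the 8 libraries came closest to that of Cdh1 were sought among 6625 other tested genes with a mean of at least 20 CPM. Likeness was the root mean square difference of log2 CPM, each gene centred on its own mean. The closest were Wnt5a (0.088), which encodes a secreted Wnt ligand, Hsd17b10 (0.090), a mitochondrial dehydrogenase, Pros1 (0.095), which encodes protein S, a ligand in outer segment uptake by the RPE, Ednrb (0.101), the endothelin receptor of melanocytes, and Creb3l1 (0.102), a transcription factor of secretory cells. The median over all compared genes was 0.318. Wnt5a read 61.6, 53.9, 60.7 and 54.5 CPM in Bbs8+/+ and 47.9, 49.6, 39.4 and 47.6 CPM in Bbs8-/-. Its genotypes did not overlap, and Bbs8-/- replicate 3 was the lowest library for both genes. Of the 5 genes, Pros1, Ednrb and Creb3l1 passed edgeR's test on their own (FDR 0.0156, 1.97e-05 and 0.000456), and Wnt5a and Hsd17b10 did not (FDR 0.280 and 0.377). Since all 5 were picked for their likeness to Cdh1, these values describe them and support nothing about Cdh1.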

How the data were processed

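RNA of 8 P11 RPE eyecup preparations, 4 per genotype as the labels give it, was sequenced as single-end QuantSeq 3′ libraries. RNA came from homogenates of the eyecups that were left once cornea, lens, retina and optic nerve had been taken away. Each deposited file held raw counts, 1 per gene, of reads with a unique alignment: the authors trimmed reads with BBDuk, aligned them with STAR to mm10 and counted them with htseq-count. Rows for reads outside genes (42.15% to 44.39% of uniquely aligned reads) and ambiguous reads (0.309% to 0.323%) were left out. The filter that the study set on reads with several alignments was not applied. Whether strand was used was not given in the sources used here.

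Symbols and positions came from GENCODE M21 (mm10), which named 31011 of 31053 gene identifiers. Genes that reached 1 CPM in 4 or more libraries entered 1 fit of edgeR 4.0.16 (R 4.3.3; TMM, quasi-likelihood F test, two-sided, genotype only), with Benjamini-Hochberg adjustment over all 13813 genes and a threshold of FDR 0.05. The SE is the log2 fold change over the root of F, and 95% intervals use the fit's degrees of freedom. Ratios within libraries were tested by exact permutation. On simulated counts with 200 changed genes the fit recovered most of the known changes. Those changes were larger than that of Cdh1 and lay in genes of higher level than Ocln and Cldn19. Smaller changes and low counts were therefore not covered. No molecular identifiers were named, so the floor of 3 counts covers counting error only. The labels do not say whether libraries of a genotype were separate litters, and p-values measure only the spread between these libraries. No replicate pair agreed within counting noise.

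The genes named were the 9 members; Ttc8; genes past FDR 0.05 in 6 wider junction lists; up to 2 genes by smallest p in each of 7 marker lists; and the 5 genes closest in pattern to Cdh1. Ctnna1, Snai1, Snai2, Zeb1, Twist1, Tcf3, Grhl2, Rpe65, Rlbp1, Best1, Sox10, Kit, Tyr, Mc1r, Aldh3a1, Sfn, Mip, Lim2, Bfsp1, Bfsp2, Dcn, Lum, Dpt, Col3a1, Pdgfra, Fbln1, Tie1, Krt14, Xist and the genes overlapping members were named outside that rule, after their values were seen. Other marker lists are not reported here. Members and lists were chosen with earlier results of these data known. Alternatives were RLE size factors, total counts, TMM without Gm42418 and mitochondrial genes, filterByExpr, no filter, DESeq2 1.42.0, the replicate number as a block, thinning to 1636725 counts, and leaving out each library; for the RPE ratio, the mean of log2(CPM + 0.5) of the markers was used instead of their sum. Replicate numbers did not pair the libraries.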

Additional observations from a re-analysis of the deposited data

Results flagged for a closer look

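Single libraries that stood apart from the other 3 of their genotype were sought by Dixon's ratio in 50 groups of 4 values, of which chance flags about 1 in 20. There were 3 such values. Epcam had 0.431 CPM in Bbs8+/+ replicate 1, from 1 count, with 0 in the other 3 libraries of the genotype. Ctnnb1 was 660 CPM in Bbs8+/+ replicate 3, against 707 to 708 CPM in the other Bbs8+/+ libraries, and 602 CPM in Bbs8-/- replicate 3, against 582 to 585 CPM in the other Bbs8-/- libraries. In each genotype the library that stood apart in Ctnnb1 was the one nearest to the other genotype. The Ctnnb1 call held without either of them.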

How the results depend on the processing

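Cdh1 passed edgeR's or DESeq2's FDR of 0.05 with the same direction under all 16 alternatives to its fit, with log2 fold changes from -0.51 to -0.41 and FDRs from 0.00163 to 0.0398, and so did Ctnnb1 (-0.27 to -0.23). Lower members called numbered 2 with total counts only and with no filter, where Ctnnd1 joined Cdh1 (edgeR FDR 0.0486 and 0.0447), and 1 to 2 when a library was left out. Lower genes called in the wider lists numbered 1 to 2 when a library was left out. Higher calls stayed at 0 in both. Leaving out a library put Cdh3 between -0.064 and 0.046, Ocln between -0.50 and 0.24 and Cldn19 between -0.58 and 0.20, and thinning put Ocln at 0.054, none of them past the threshold. Leaving out a library also put Cdh2 between -0.28 and -0.029 and Cldn1 between 0.062 and 0.17. Thinning put Cdh2 at -0.016, and neither gene passed the threshold. Cldn19 was filtered out or had no adjusted p in 6 of the 16. Replicate numbers did not pair the libraries (correlations of same-numbered deviations 0.0197, 0.00337, -0.050 and -0.056); with the replicate block Cdh1 was -0.47 (edgeR FDR 0.00605). Within-number differences were -6.64 points for the cadherin share and -0.53, -0.46 and -0.59 for the log2 ratios of Cdh1 to RPE markers, Cdh3 and Cldn1, each at exact p = 0.125, the smallest that 4 pairs allow. Leaving out a library put the share between -7.75 and -5.72 points (p up to 0.0571) and the ratio to Cldn1 between -0.69 and -0.49 (p up to 0.0571). After thinning the ratio to Cdh3 was -0.44 (exact p = 0.0571). The cause of these shifts was not tested. Epcam, Cldn19 and Ocln had too few counts for a small change to be seen.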
